A study of Rattus norvegicus with 5 samples.

Results

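Heat shock proteins and DnaJ cochaperones were examined in isolated proximal tubular cells, which line the first stretch of the nephron, taken from Sprague-Dawley rats that had type I diabetes. The groups were cells given C-peptide, the connecting peptide cleaved from proinsulin, for 2 h (3 arrays) and untreated cells of the same kind of animal (2 arrays), so every sample was diabetic and no healthy group was present. The labels number the animals within each group, without saying whether animal 1 of both groups is 1 rat, and the sources used here give neither the C-peptide dose nor the way diabetes was induced. RNA was measured on an Affymetrix whole-transcript array with 29215 probe sets.

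The members were the genes with a probe set of exactly 1 symbol that begins with Hspa, Hspb, Hspd, Hspe, Hsph, Hsp90, Dnaja, Dnajb or Dnajc, or that is Hsf1, Hsf2, Bag3 or Cryab. This gave 77 probe sets for 68 genes, out of 14506 genes on the array with a probe set of 1 symbol, and each gene is represented by its brightest probe set. By the known site of their proteins, 46 members were placed in the cytosol or nucleus, 12 in the endoplasmic reticulum (ER), 7 in the mitochondrion and 3 in none of these. Hspa1a and Hspa1b, the strongly heat-inducible Hsp70 genes, share a probe set with several symbols and so are not among the members.

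Hsp70 proteins bind exposed stretches of unfolded proteins in cycles driven by ATP. J-domain proteins of the Dnaja, Dnajb and Dnajc classes bring them substrates and start ATP hydrolysis, and Hsp110-type proteins release the ADP. Hsp90 acts later on signalling proteins such as steroid receptors and kinases, small heat shock proteins hold unfolding proteins without ATP, and the Hspd1 and Hspe1 chaperonin folds proteins inside mitochondria. In the cytosol many of these genes are induced by the factor Hsf1, and in the ER by the unfolded protein response. In the kidney they are best known from ischaemic and toxic injury of the tubule.

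The median deposited intensity was 60.1 to 95.9 on the C-peptide arrays and 84.4 to 92.2 on the untreated arrays, so arrays were brought to 1 distribution by quantile normalisation. Intensities below are on that scale unless called deposited, and differences are C-peptide minus untreated on the scale of log2(intensity + 16), which understates changes of dim genes. All 12 markers of the proximal tubule lay above 96.11% of probe sets in mean intensity, among them Lrp2, Cubn and Slc34a1. Markers of other cells were present too: the 10 measured endothelial markers summed to 7804 to 11954 on the C-peptide arrays and 18765 to 21427 on the untreated ones, and the 10 immune cell markers summed to 2131 to 2910 on the C-peptide arrays and 3765 to 3858 on the untreated ones. The 12 proximal tubule markers summed to 28826 to 36257 on the C-peptide arrays, against 22061 to 26000 on the untreated arrays. Podocyte markers had a median log2 difference of -0.65 (5 genes), thick limb and distal tubule markers 0.43 (7), collecting duct markers 0.21 (7) and stromal markers -0.09 (7), and no marker of any list was at 0 on an array. These shifts accompany the results below, and fewer cells of a type and less RNA per cell cannot be told apart in bulk RNA.

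After 2 h of C-peptide no chaperone gene passed the test across the array. Hspb1, the small heat shock protein Hsp27, had the biggest difference, 2.55-fold lower with C-peptide. Most other members differed little, and 62 of the 68 lay within 1.5-fold. Cytosolic members lay on both sides of 0, and all ER members but Dnajc14 lay within 0.26 of it on the log2 scale. The 7 mitochondrial members all lay above 0, though 4 of 7 did so in the values as deposited.

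At adjusted p 0.05 in limma 0 of the 68 members passed, as did 0% of all 14506 genes. At unadjusted p under 0.05 there were 10 members (14.7%), 4 higher and 6 lower, where 13.1% of all genes met that mark, 5.94% higher and 7.12% lower. The C-peptide arrays all lay to 1 side of the untreated arrays for 27 members (39.7%), 17 higher and 10 lower, against 33.6% of all genes, 18.7% higher and 14.9% lower. The members' shares were thus near those of the array as a whole. The 95% interval of a member's difference reached a median of 0.37 to either side on the log2 scale, and up to 0.75, so a moderate change in a single gene was not detectable with these arrays. The count of 10 was 3 without untreated animal 1, where 6.6% of all genes met the mark, and 5 in the values as deposited, where 7.65% did. The 5 in the values as deposited were Hspb1, Hspa2, Hspa12b, Dnaja1 and Dnajc14, all lower, so none of the 4 higher members met the mark there. In the values as deposited the groups were apart for 16 members, 4 higher and 12 lower, against 21.6% of all genes, 4.09% higher and 17.5% lower. Of the 27 above, 12 were apart there in the same direction: Dnajc6, Dnajc5b, Hspa9 and Dnajc22, which were higher, and Hspb1, Hspa2, Hspa12b, Dnaja1, Dnajb4, Dnajc8, Dnajc9 and Dnajc14, which were lower. These 12 of 68 members stand beside 2269 of all 14506 genes that were apart in both sets of values, 539 higher and 1730 lower. Dnajc5b was dim, at percentile 17.37 of probe sets in mean intensity. Its deposited values were 22.35, 28.26 and 30.26 in C-peptide cells and 22.22 and 19.51 in untreated cells, a narrow gap. Below, overlap refers to the quantile-normalised values, and the other 15 of the 27 overlapped in the deposited ones. Hspa5, Dnajb11, Hsph1 and Dnajb7 overlapped by that measure but were lower without overlap in the deposited values.

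**Figure D1:**
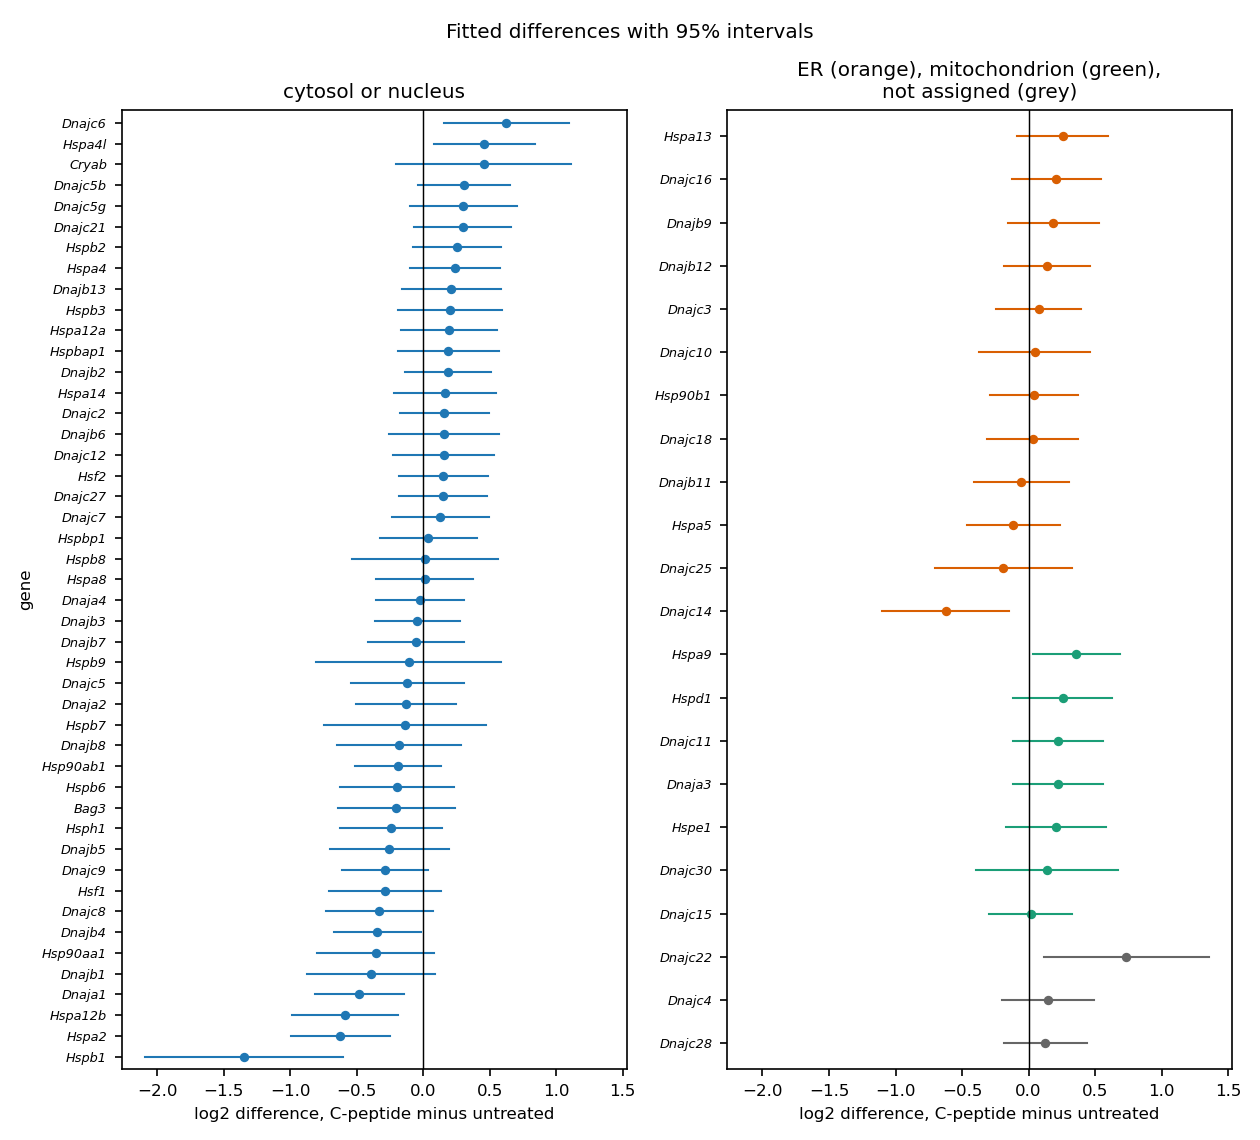
Fitted log2 difference of each chaperone gene, C-peptide minus untreated (point), with its 95% interval (line), by compartment. Hspb1 lies lowest, at -1.35, while most intervals include 0 and all 7 mitochondrial points lie above it (4 of 7 in the values as deposited).

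Promoter sequences show what the member families carry near their starts. RefSeq windows of assembly GRCr8, from 250 bases before to 50 after the annotated start, were found for 54 of the 68 members. Hsf1 binds repeats of GAA in alternating direction, searched here on both strands as pairs (GAA and TTC in either order, with any 2 bases between) and as triplets (GAA, TTC and GAA, with any 2 bases between each, or the same on the other strand). A pair was in 17 of the 54 windows (31.5%), against 15.9% of all 33469 windows, and a triplet in 5 (9.26%), against 0.798%. A triplet holds overlapping pairs, so each triplet window is also counted among the pairs. The triplet genes were Dnaja1, Hspa8, Hsph1, Hspd1 and Hspe1. Hspd1 and Hspe1 share the same run of GAA repeats, as described below, so that run is counted in both their windows.

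The ER stress element, CCAAT and CCACG with any 9 bases between, on either strand, was in 3 member windows (5.56%), against 0.0657% of all windows. They belonged to Hspa5, Hsp90b1 and Dnajc3, all of the ER. Windows are shown for 5 genes that the results turn on: Hspb1 (chr12:26432252-26432551, minus strand), with the biggest difference, Dnaja1 (chr5:60638154-60638453, plus strand), lower without overlap, Hspa8 (chr8:50080264-50080563, plus strand), near 0, Hspe1 (chr9:64084077-64084376, plus strand), for the mitochondrion, and Hspa5 (chr3:38452766-38453065, plus strand), for the ER. Capitals mark the matches to these elements.
Hspb1: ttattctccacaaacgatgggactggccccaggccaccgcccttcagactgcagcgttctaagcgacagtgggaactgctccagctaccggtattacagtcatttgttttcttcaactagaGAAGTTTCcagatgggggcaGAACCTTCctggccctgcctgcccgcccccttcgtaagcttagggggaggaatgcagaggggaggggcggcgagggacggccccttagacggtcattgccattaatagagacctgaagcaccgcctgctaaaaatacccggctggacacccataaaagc
Dnaja1: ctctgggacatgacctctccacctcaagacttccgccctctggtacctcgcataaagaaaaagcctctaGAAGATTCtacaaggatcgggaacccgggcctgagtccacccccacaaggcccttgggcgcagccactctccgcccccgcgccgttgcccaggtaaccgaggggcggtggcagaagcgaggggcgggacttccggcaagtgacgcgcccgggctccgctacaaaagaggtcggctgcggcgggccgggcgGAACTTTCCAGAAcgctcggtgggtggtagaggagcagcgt
Hspa8: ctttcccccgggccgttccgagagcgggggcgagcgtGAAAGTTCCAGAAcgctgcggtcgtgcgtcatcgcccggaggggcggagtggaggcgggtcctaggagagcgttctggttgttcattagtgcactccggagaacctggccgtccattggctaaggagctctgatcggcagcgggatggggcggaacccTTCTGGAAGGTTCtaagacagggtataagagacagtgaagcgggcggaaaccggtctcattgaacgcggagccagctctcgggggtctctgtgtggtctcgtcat
Hspe1: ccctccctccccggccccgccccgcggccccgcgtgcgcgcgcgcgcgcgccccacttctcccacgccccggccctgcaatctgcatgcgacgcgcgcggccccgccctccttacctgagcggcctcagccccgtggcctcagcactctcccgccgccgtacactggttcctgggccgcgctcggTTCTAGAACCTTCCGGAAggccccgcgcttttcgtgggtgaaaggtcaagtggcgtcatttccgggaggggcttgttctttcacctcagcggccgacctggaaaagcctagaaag
Hspa5: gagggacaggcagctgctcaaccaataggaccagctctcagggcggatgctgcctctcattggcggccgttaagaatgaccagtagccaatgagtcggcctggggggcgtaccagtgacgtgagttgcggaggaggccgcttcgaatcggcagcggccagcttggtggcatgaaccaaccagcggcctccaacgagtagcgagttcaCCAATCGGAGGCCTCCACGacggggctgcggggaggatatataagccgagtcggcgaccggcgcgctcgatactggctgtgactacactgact

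In Hspb1 the pairs begin 129 and 109 bases before the start, and in Hspa8 the triplets begin 213 and 55 bases before it. The Dnaja1 triplet begins at base 10 of the transcript, and the Hspa5 element 43 bases before the start. Hspe1 and Hspd1 are transcribed head to head: their windows, on opposite strands, share 211 bases and thus the same run of GAA repeats. That run begins 65 bases before the start of Hspe1. Hspd1 and Hspe1 had similar differences, 0.26 and 0.21.

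Small heat shock proteins bind unfolding proteins and, in the case of Hspb1, also actin filaments. Hspb1 had intensities of 717, 1578 and 816 in C-peptide animals 1, 2 and 3, against 2647 and 2372 in untreated animals 1 and 2. All C-peptide arrays were below both untreated arrays, with animal 2 nearest to them. The means were 1037 ± 471 (SD, n = 3) and 2509 ± 194 (SD, n = 2), and the log2 difference was -1.35 ± 0.32 (SE), at adjusted p = 0.192 in limma. In the deposited intensities the C-peptide arrays were again below both untreated arrays, with 532, 1690 and 812 in C-peptide cells and 2536 and 2715 in untreated cells. Hspb1 passed at adjusted p = 0.0490, 0.0429 and 0.0413 in 3 alternatives that test fewer features: probe sets above the median intensity, probe sets with 1 symbol, and 1 mean value per gene. Its difference stayed between -1.70 and -1.11 over all 15 alternatives, with adjusted p from 0.0413 to 0.815.

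The endothelial sum was likewise lower on every C-peptide array than on either untreated array. It was 8122, 11954 and 7804 in C-peptide animals 1, 2 and 3, so animal 2 was the highest of the C-peptide arrays both for Hspb1 and for these markers. Of the 10 endothelial markers 9 had an unadjusted p under 0.05, all lower, with a median log2 difference of -1.13. The podocyte sum (1460, 2454 and 1664 in C-peptide animals 1, 2 and 3) and the immune cell sum (2297, 2910 and 2131) had this pattern too. Both were below either untreated array and highest in C-peptide animal 2. The podocyte sum came mostly from Podxl and Clic5, which were lower without overlap, at -1.32 and -1.21. Synpo was lower too, at -0.65, whereas Nphs1 at 0.11 and Wt1 at -0.17 overlapped between the groups. The thick limb, collecting duct and stromal sums overlapped between the groups. What part endothelial cells, podocytes or immune cells had in the Hspb1 signal was not tested.

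**Figure D2:**
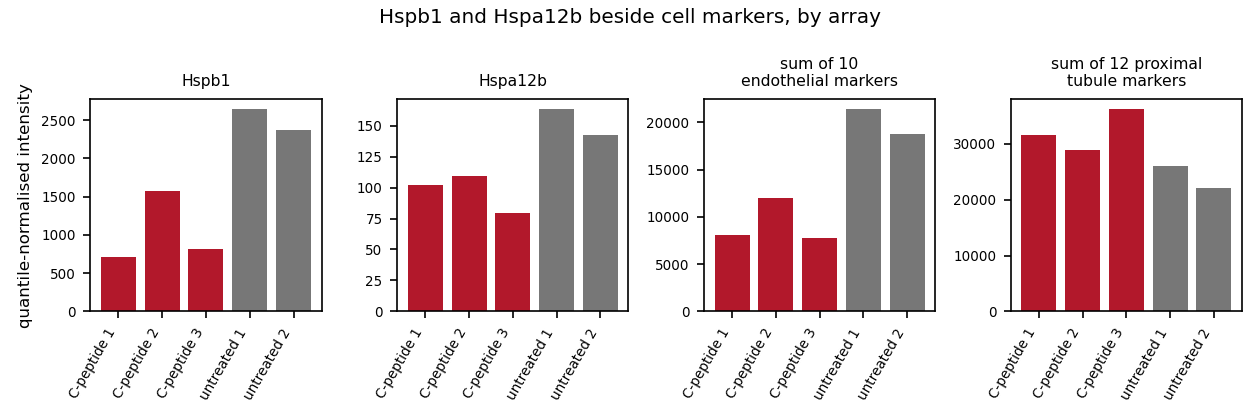
Quantile-normalised intensity of Hspb1 and Hspa12b and the summed intensity of 10 endothelial and 12 proximal tubule markers on each array (bars, C-peptide red, untreated grey). Hspb1, Hspa12b and the endothelial sum are lower, and the proximal tubule sum higher, on all C-peptide arrays than on the untreated arrays.

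None of the other small heat shock genes had an unadjusted p under 0.05. Cryab, alpha-B crystallin, had 431, 624 and 308 in C-peptide cells and 353 and 281 in untreated cells. Its groups overlapped, since C-peptide animal 3 lay between the untreated arrays, and its difference of 0.45 had an interval of -0.20 to 1.11 and was 0.20 without C-peptide animal 2. Hspb6, a small heat shock protein of muscle, had 168, 233 and 163 in C-peptide cells and 223 and 207 in untreated cells, again with overlap. Hspb8, the partner of the cochaperone Bag3 in clearing misfolded proteins, had 43.8, 42.1 and 20.5 in C-peptide cells and 31.7 and 36.1 in untreated cells. Hspb2, Hspb3, Hspb7 and Hspb9 had differences between -0.14 and 0.25, and Hspb1, Hspb6 and Cryab were the members of this family that lay above the median probe set in intensity.

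Among the Hsp70 and Hsp110 genes, 4 of 11 had an unadjusted p under 0.05, 2 in each direction, where 13.1% of all genes did (5.94% higher, 7.12% lower). Hspa12b, a distant Hsp70 relative known from endothelial cells, had 102, 109 and 79.6 in C-peptide cells, against 164 and 142 in untreated cells. Hspa2, an Hsp70 best known from the testis, lay below the median probe set in intensity, at percentile 30.84. It was at 32.4, 36.4 and 24.95 in C-peptide cells and 54.9 and 57.9 in untreated cells. Both were lower on every C-peptide array, at -0.59 ± 0.17 (adjusted p = 0.271) for Hspa12b and -0.62 ± 0.16 (adjusted p = 0.213) for Hspa2, beside a median of -1.13 for the endothelial markers, whose part in these values was not tested.

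Hspa4l, an Hsp110-type exchange factor, lay on the other side. It had 114, 125 and 154 in C-peptide cells and 89.2 and 90.9 in untreated cells, a difference of 0.46 ± 0.16 without overlap (adjusted p = 0.365). In the deposited values, 81.3, 145 and 146 in C-peptide cells and 100.5 and 94.1 in untreated cells, the groups overlapped and the difference was 0.27, with an unadjusted p above 0.05. Its relatives differed less: Hspa4 was at 1677, 1817 and 1839.6 in C-peptide cells and 1615 and 1396 in untreated cells, and Hsph1 at 1044, 1336 and 1131 in C-peptide cells and 1473 and 1289.6 in untreated cells. Hspa4 was higher on all C-peptide arrays by 0.24, whereas Hsph1 overlapped at -0.24, and neither had an unadjusted p under 0.05.

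Hspa8, the constitutive Hsp70 of the cytosol, showed no detectable difference. It had 10875, 12383 and 13629 in C-peptide cells and 12751 and 11585 in untreated cells, a difference of 0.01 with an interval of -0.36 to 0.38. Its 8 probe sets ranged from -0.18 to 0.01, with 7 of them below 0. The brightest, used here, was the highest of them, and the mean of the probe sets lay below 0. Some of the others were lower without overlap, but none had an unadjusted p under 0.05. Hspa12a and Hspa14 overlapped between groups at 0.19 and 0.16.

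The cytosolic Hsp90 genes were lower on every C-peptide array after quantile normalisation, but not in the deposited values, and neither had an unadjusted p under 0.05. Hsp90aa1, the inducible form, had 3527, 5125 and 3964 in C-peptide cells and 5167 and 5488 in untreated cells. Hsp90ab1, the constitutive form, had 5125, 5521 and 5157 in C-peptide cells and 6257 and 5757 in untreated cells. Their differences were -0.36 ± 0.19 (adjusted p = 0.522) and -0.19 ± 0.14 (adjusted p = 0.663), and C-peptide animal 2 came close to the untreated level in Hsp90aa1. In the deposited values C-peptide animal 2 lay between the untreated arrays for both genes, at 5392 against 4769 and 5888 for Hsp90aa1 and at 5878 against 5717 and 6152 for Hsp90ab1. With arrays centred on their medians the differences were -0.23 for Hsp90aa1 and -0.0013 for Hsp90ab1.

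The 39 J-domain members of all compartments had a median difference of 0.13, with 24 above and 15 below 0, and 5 had an unadjusted p under 0.05, 2 higher and 3 lower (12.8%, beside 13.1% of all genes). Dnaja1, which delivers clients to Hspa8, had 1701, 1694 and 1484 in C-peptide cells, against 2305 and 2234 in untreated cells. Dnajb4 had 686, 683 and 627 in C-peptide cells and 806 and 892 in untreated cells. Neither overlapped, with differences of -0.48 ± 0.14 (adjusted p = 0.282) for Dnaja1 and -0.34 ± 0.14 (adjusted p = 0.420) for Dnajb4. Dnajb1, the heat-inducible Hsp40, was at 545, 832 and 589 in C-peptide cells and 909 and 795 in untreated cells, and here C-peptide animal 2 lay between the untreated arrays. Dnajc9, a histone chaperone, had 106, 112 and 119 in C-peptide cells and 146 and 135 in untreated cells, lower without overlap at -0.29 ± 0.14 (adjusted p = 0.487). The cytosolic members not described one by one lay between -0.33 for Dnajc8, a splicing-associated J protein, and 0.31 for Dnajc5b, a relative of the synaptic vesicle protein Dnajc5. Hspbp1 and Hspbap1, which met the rule by their symbols, are binding partners of heat shock proteins and overlapped between groups at 0.04 and 0.19.

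Dnajc6, or auxilin, which strips clathrin from vesicles with Hsp70, lay higher. Its intensity was 287, 182 and 236 in C-peptide cells and 136 and 154 in untreated cells, a difference of 0.62 ± 0.20 without overlap (adjusted p = 0.324). Dnajc22, a membrane J protein whose Drosophila counterpart takes part in clathrin-mediated uptake, was at 459, 234 and 387 in C-peptide cells and 207 and 197 in untreated cells. Its difference of 0.74 ± 0.27 (adjusted p = 0.376) came with the highest values in C-peptide animals 1 and 3. Dnajc4, also placed in no compartment, had 217, 243 and 259.8 in C-peptide cells and 203 and 226 in untreated cells, and overlapped at 0.15. Dnajc28 had 196, 191 and 201 in C-peptide cells and 176 and 181 in untreated cells, higher without overlap at 0.13. Dnajc4 and Dnajc28 lay below 0 in the values as deposited. On the same arrays the 12 proximal tubule markers had a median difference of 0.47, with all 12 above 0, and their part in the Dnajc6 and Dnajc22 values was not tested.

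The regulators Hsf1, Hsf2 and Bag3 overlapped between the groups. Hsf1 had 119, 148 and 133 in C-peptide cells and 195 and 141 in untreated cells, and Hsf2, a related factor, had 700.1, 608 and 710.2 in C-peptide cells and 593 and 612 in untreated cells. Their differences were -0.29 and 0.15, and that of Hsf1 was -0.075 without untreated animal 1. Bag3 had 424, 362 and 321 in C-peptide cells and 490.3 and 367 in untreated cells, and its difference of -0.20 was -0.00040 without untreated animal 1. Hsf2 lay on the other side of 0 in the values as deposited, at -0.05.

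**Figure D3:**
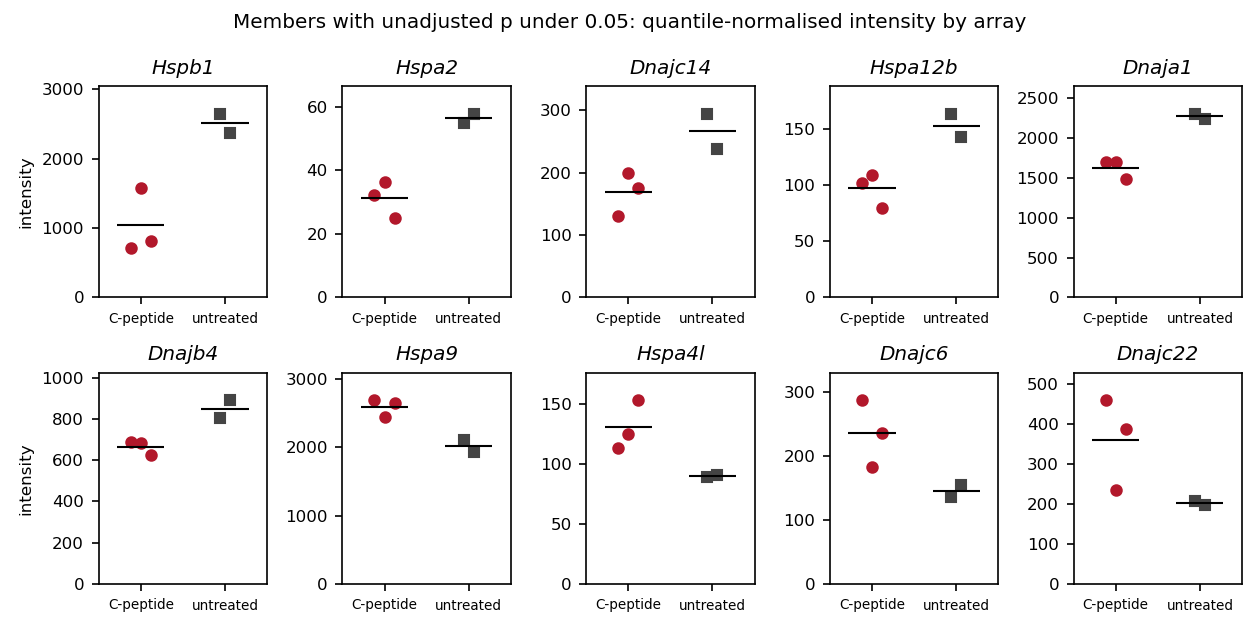
Quantile-normalised intensity on each array of the 10 members with unadjusted p under 0.05 (C-peptide, red circles; untreated, grey squares; lines, group means). In each panel the C-peptide arrays lie to 1 side of the untreated arrays.

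Over all 46 cytosolic members the median log2 difference was -0.0069, with 23 above and 23 below 0, beside a median of 0.029 over all genes. In the values as deposited 11 of the 46 lay above 0 and the median was -0.15, beside -0.14 for all genes. Of these 46, 7 (15.2%) had an unadjusted p under 0.05, 2 higher and 5 lower, near the 13.1% of all genes. In a list of 12 well-known stress genes of the cytosol (Hspa8, Hsph1, Hsp90aa1, Hsp90ab1, Dnaja1, Dnajb1, Hspb1, Hspb8, Cryab, Bag3, Hsf1 and Hsf2), 8 were below 0 and the median was -0.22. Without overlap and lower were 4 of them, Hspb1, Dnaja1, Hsp90aa1 and Hsp90ab1, beside 14.9% of all genes. In the deposited values Hspb1, Dnaja1 and Hsph1 were lower without overlap, beside 17.5% of all genes, and both Hsp90 genes overlapped. Further cochaperones of cytosolic Hsp70 and Hsp90 numbered 19, with a median of -0.083. None of them passed at adjusted p 0.05 in limma. Beside 13.1% of all genes, 2 of the 19 (10.5%) had an unadjusted p under 0.05. These were Bag2, an inhibitor of the ubiquitin ligase Stub1, at 0.64 ± 0.14 (adjusted p = 0.176), and Bag5, another Bag-domain protein, at -0.44 ± 0.14 (adjusted p = 0.332). Fkbp4 and Fkbp5, immunophilins of the steroid receptor complex, were at 0.30 and -0.42. The cytosolic chaperonin TRiC with prefoldin numbered 12, with a median of 0.089. In limma 0 of them passed at adjusted p 0.05 and 0 at unadjusted p under 0.05, with Cct3 at 0.35, Cct2 at 0.20, Cct6a at 0.24 and Cct5 at 0.19.

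The ER members had a median of 0.044, with 8 of 12 above 0, a sign that turns with the scaling: in the values as deposited 1 of 12 lay above 0 and the median was -0.15, beside -0.14 for all genes. Hspa5, the ER Hsp70 called BiP and the best-known readout of the unfolded protein response, had 2861, 2376 and 2672 in C-peptide cells and 2939 and 2759.8 in untreated cells. Hsp90b1, the ER Hsp90, had 2840.4, 2915 and 3223 in C-peptide cells and 2948 and 2861 in untreated cells. Both overlapped, at -0.11 with an interval of -0.46 to 0.23 and at 0.04 with an interval of -0.29 to 0.37. Hsp90b1 lay below 0 in the values as deposited. Hspa5 was lower without overlap there, at 2391, 2533 and 2614 in C-peptide cells and 2838 and 3145 in untreated cells. Its deposited difference was -0.25, beside -0.14 for all genes. Among the J proteins of the ER lumen, Dnajb9 had 429, 364 and 425 in C-peptide cells and 362 and 347 in untreated cells. Dnajc3, which also inhibits kinases that stop translation, had 496, 539 and 525 in C-peptide cells and 478 and 507 in untreated cells. Dnajb11, a BiP cofactor, had 335, 325 and 398 in C-peptide cells and 352 and 379 in untreated cells. They were at 0.18 without overlap, and at 0.08 and -0.05 with overlap, and Dnajc10, which reduces disulfides, was at 0.05. Hspa13, another Hsp70 of the ER, had 222, 196 and 186 in C-peptide cells and 159 and 172 in untreated cells. It was higher without overlap, at 0.26. Dnajc16 had 231, 205 and 223 in C-peptide cells and 199.9 and 177 in untreated cells, and Dnajb12, of the ER membrane, had 381, 423 and 407 in C-peptide cells and 361 and 369 in untreated cells. Both were higher without overlap, at 0.21 and 0.14. With Dnajb9 and Hspa13 that made 4 such members of the 12, where 18.7% of all genes were higher without overlap. Their unadjusted p values were all above 0.05, and all but Hspa13 lay below 0 in the values as deposited. There 0 ER members were higher without overlap, beside 4.09% of all genes.

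Dnajc14, a J protein of the ER membrane, was the ER member that stood apart. It had 130.1, 199.9 and 176 in C-peptide cells, against 295 and 238 in untreated cells. Every C-peptide array was below both untreated arrays, and the difference was -0.62 ± 0.20 (adjusted p = 0.330). Dnajc25 had 58.2, 84.2 and 107 in C-peptide cells and 96.9 and 92.3 in untreated cells and overlapped at -0.19, and Dnajc18 overlapped at 0.03. Other genes of ER folding and the unfolded protein response numbered 24, with a median of 0.063. At adjusted p 0.05 in limma 0 passed. Beside 13.1% of all genes, 1 of the 24 (4.17%) had an unadjusted p under 0.05. That gene was Sil1, a nucleotide exchange factor of BiP, at 0.35 ± 0.14 (adjusted p = 0.412). The transcription factors Atf4 and Xbp1 were at -0.27 and 0.20, and Ero1a, an oxidase, at -0.24.

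Mitochondrial members had a median of 0.22 and all 7 lay above 0, where 54.9% of all genes did. Hspa9, mortalin, the Hsp70 that pulls imported proteins into the matrix, had 2691, 2441 and 2651 in C-peptide cells, against 2102 and 1935 in untreated cells. It was higher on every C-peptide array, by 0.36 ± 0.14 (adjusted p = 0.404). The chaperonin subunit Hspd1 had 2269.5, 1886 and 2309 in C-peptide cells and 1919 and 1677 in untreated cells, and its cap Hspe1 had 2319.8, 2017 and 2414 in C-peptide cells and 1768 and 2133 in untreated cells. Both overlapped, because C-peptide animal 2 lay below the higher untreated array, at differences of 0.26 and 0.21. A further Hspd1 probe set was at 0.06. Dnaja3, the matrix J protein, had 465, 434 and 519.6 in C-peptide cells and 399 and 406 in untreated cells, a difference of 0.22 without overlap. Dnajc11, which is tied to the cristae, had 234, 198 and 217 in C-peptide cells and 189 and 176 in untreated cells, also higher without overlap at 0.22. Dnajc15, a J protein of the import motor, had 138, 132 and 132 in C-peptide cells and 128 and 137 in untreated cells. Dnajc30 had 78.3, 64.1 and 42.0 in C-peptide cells and 60.9 and 45.9 in untreated cells. Both overlapped, at 0.01 and 0.14.

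Genes of mitochondrial import and folding outside the member families lay at similar values. All 10 measured were above 0, with a median of 0.22. Of these, 7 were higher without overlap, where 18.7% of all genes were, but 1 in the deposited values, where 4.09% of all genes were, and 0 passed at adjusted p 0.05 in limma or had an unadjusted p under 0.05. Grpel1, the exchange factor of Hspa9, was at 0.31, Clpx, a protease subunit, at 0.37, Timm44, of the import motor, at 0.29 and Lonp1, a protease, at 0.28. In the values as deposited, where the median of all genes was -0.14, 4 of the 7 mitochondrial members and 4 of these 10 genes lay above 0, and 6 and 9 above the median of all genes. After centring each array on its median, 6 of 7 and 10 of 10 lay above 0. The proximal tubule markers, at a median of 0.47, were higher on the same arrays, and their part in the mitochondrial values was not tested.

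**Figure D4:**
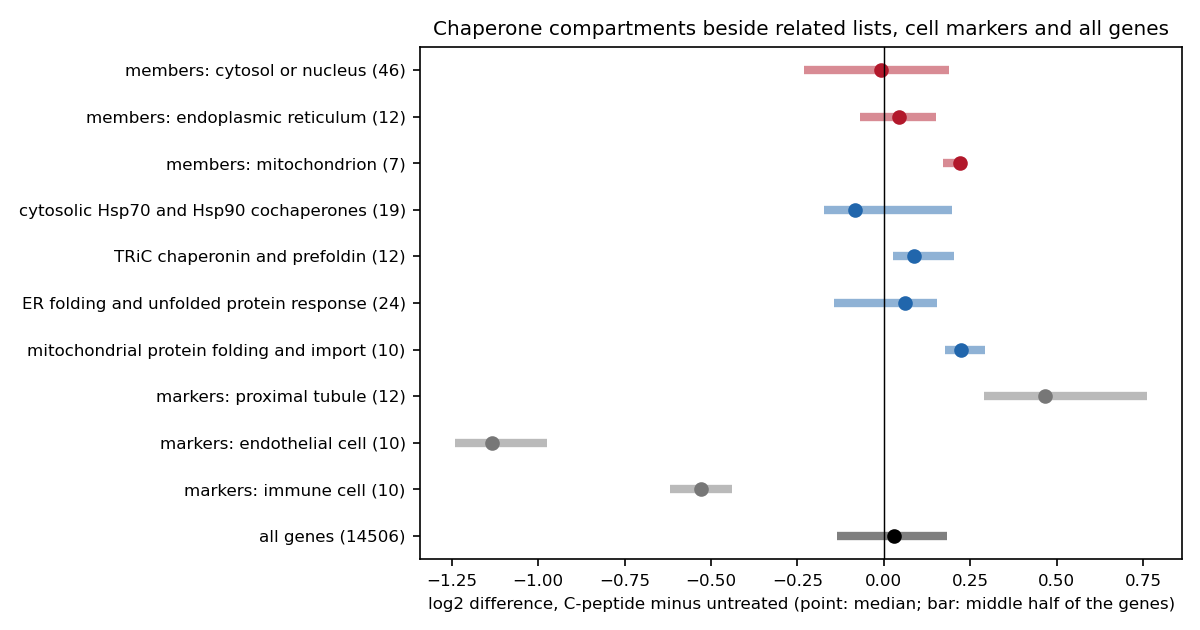
Median log2 difference (point) and interquartile range (bar) for the 3 compartments of members, 4 lists of related genes, 3 lists of cell markers and all genes, with the number of genes in brackets. Cytosolic and ER members lie near all genes (0.029), mitochondrial members at 0.22 (0.0027 in the values as deposited), endothelial markers at -1.13 and proximal tubule markers at 0.47.

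The arrays of the C-peptide group differed among themselves. Of the 10 members with unadjusted p under 0.05, C-peptide animal 2 lay nearest to the untreated mean in 7, as it did in 64.1% of all genes at that mark. Without that mark it lay nearest in 57.4% of all members and 45.9% of all genes. The mitochondrial members' median deviation from their 5-array mean was 0.18, -0.03 and 0.18 in C-peptide animals 1, 2 and 3, against -0.09 and -0.18 in untreated animals 1 and 2. For cytosolic members it was 0.0025, -0.01 and -0.04 in C-peptide animals and -0.04 and 0.02 in untreated animals. For ER members it was -0.04, -0.01 and 0.09 in C-peptide animals and -0.03 and -0.03 in untreated animals, so in both of these compartments the groups overlapped.

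**Figure D5:**
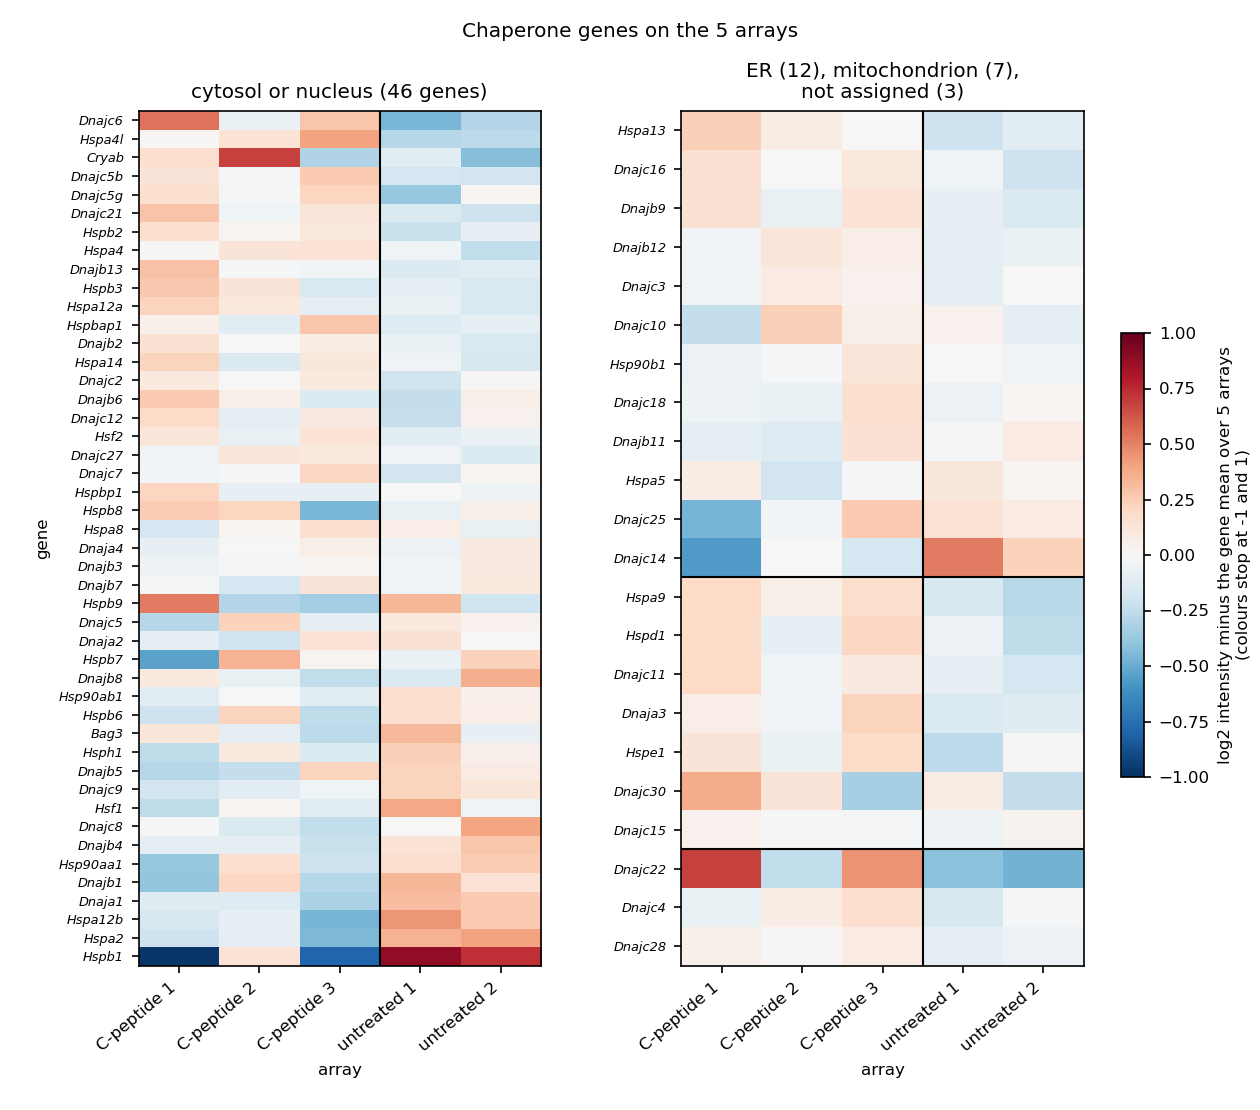
Log2 intensity of each of the 68 members on each array, minus the gene's mean over the 5 arrays (red higher, blue lower), with C-peptide arrays left of the vertical line. The row of Hspb1 has the strongest contrast, with C-peptide animals 1 and 3 lowest and both untreated animals highest.

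Members with and without the promoter elements described above lay on both sides of 0. The 17 members with a pair had a median difference of 0.01, with 7 below and 10 above 0, and the 37 without had 0.08, with 15 below and 22 above. The 5 with a triplet had a median of 0.01 and ran from -0.48 for Dnaja1 to 0.26 for Hspd1, beside 0.05 over the other 49. The 3 genes with the ER stress element were at -0.11, 0.04 and 0.08.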

How the data were processed

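Per the submitters' processing notes, the authors summarised probe sets with PLIER in Affymetrix Expression Console 1.1. The deposited values are intensities on a linear scale, and 550 of them are exactly 0. The sources used here do not give the background correction or the scaling between arrays, and the number of arrays limits the precision.

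From these, intensities were quantile normalised, taken to log2(value + 16) and fitted per probe set by limma 3.58.1 (lmFit, eBayes; R 4.3.3) on group alone. Tests were two-sided, and p-values were adjusted over all 29215 probe sets by Benjamini-Hochberg. Symbols came from the array's annotation table: 15310 had 1 symbol, 323 several and 13582 none. Of those with 1 symbol 15279 were found in the RefSeq gene table, where no member had been renamed. The 2 probe sets of Dnajb12 carry identical values. Labels number the animals within a group, so arrays of 1 group come from different animals, but do not say whether the groups share animals. The p-values set the group difference against the spread between arrays within groups, which eBayes draws towards a value shared by all probe sets. The fit was tested on simulated data. Replicate numbers are shared between groups without a stated pairing, so no block was used.

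The members, the compartments and the lists of related genes and markers were chosen with earlier results of these data known. Values on every array are given for 22 core genes, as far as measured, and for up to 8 members per compartment with the smallest p, and of each related list the 4 genes with the smallest p are named. Other members given by value were chosen after their values were seen.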

Additional observations from a re-analysis of the deposited data

How the results depend on the processing

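Over 15 alternatives the count of members past adjusted p 0.05 in limma was 0 or 1. It was 1, namely Hspb1, with probe sets above the median intensity (54 members tested), with probe sets of 1 symbol, and with 1 mean per gene. It was 0 in the others, including each array left out. Over all probe sets tested, 0 passed as reported, against 52 in the values as deposited (6 higher, 46 lower), 29 after centring on the median (7 higher, 22 lower), 1 with pseudocount 1, 118 with pseudocount 64, 207 with a trended and robust prior, and 393, 329 and 334 in the 3 alternatives that called Hspb1. The number of members at unadjusted p under 0.05, 10 in the values as reported, ran from 3 (without untreated animal 1) to 12 (pseudocount 64). In the values as deposited the medians were -0.15 for cytosolic, -0.15 for ER and 0.0027 for mitochondrial members, beside -0.14 for all genes, and the whole array moved with them. Leaving out 1 array at a time gave medians of -0.0061 to 0.035 for cytosolic, 0.0071 to 0.092 for ER and 0.17 to 0.28 for mitochondrial members. Leaving out an untreated animal leaves 1, which is then assumed to vary like the C-peptide arrays. With the animal number as a replicate block the count was 0, and the medians were -0.0060, 0.0065 and 0.20. Deviations of same-numbered arrays correlated at -0.025 and 0.0082, and nothing in the labels pairs them. Of the 38 members named by rule, 24 kept their sign in every alternative, among them all 10 at unadjusted p under 0.05. Dnajb9, Dnajb12, Dnajc3, Dnajc4, Dnajc11, Dnajc16, Dnajc28 and Hsf2 changed sign only in the values as deposited, where the median of all genes was -0.14. The cause of the sign changes was not tested. The number of arrays, 3 and 2, limits what could be called.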
